A study of Mus musculus with 6 samples.

Results

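The genes of mitochondrial fatty acid oxidation and of carnitine supply were compared between differentiated inguinal fat cells of the mouse with and without rosiglitazone. The list holds 32 genes chosen by name and pathway, with earlier results of these data known. Of these, 31 had a probe set with exactly 1 gene symbol, and 30 were bright enough to be tested among the 12952 genes of the whole table. Each gene was read from its probe set with the highest mean intensity. Control cells were measured on 3 arrays, with no vehicle named in the labels. Treated cells, also on 3 arrays, received 1 uM of the drug over 4 days. The compound belongs to the thiazolidinediones, agonists of the fat cell receptor PPARγ, and the labels call the treated cells beiging and the control cells non-activated. A treatment note in the labels gives the drug for all 6 samples, so groups were taken from the sample titles. The labels give no strain, sex or age and do not say whether the cells were primary cells or a line. They also do not tie the 3 samples of a group to different cultures or mice; a p-value therefore reflects sample-to-sample spread that may be technical.

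Fatty acids enter mitochondria as carnitine esters, made by CPT1 on the outer membrane, carried across the inner membrane and turned back to acyl-CoA by CPT2. Each turn of beta-oxidation then runs through an acyl-CoA dehydrogenase, a hydratase, a hydroxyacyl-CoA dehydrogenase and a thiolase, with separate enzymes for long and for shorter chains. Electrons from the dehydrogenases pass through the electron transfer flavoprotein and its oxidoreductase to ubiquinone. Brown and beige fat cells burn fatty acids in this way to make heat, and many of the genes are known targets of PPAR nuclear receptors.

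The arrays were alike in level, with a median intensity between 44.46 and 46.66, and log2 values correlated at 0.994 to 0.996 within a group and at 0.984 to 0.985 between groups. Intensity here is the deposited probe set value on a linear scale. Of 7 fat cell markers 5 were tested, and 3 did not pass, Cidec rose (log2 change 0.28) and Lep, the leptin gene, fell from 665 ± 41.3 to 19.1 ± 7.52 (log2 change −5.02). Among those that did not pass, Adipoq, which encodes adiponectin, had a mean intensity of 12828.5 ± 147 (SD, n = 3) in control cells. In treated cells it was 13158 ± 238 (SD, n = 3), and the log2 change of 0.036 did not pass the test. After median centring Adipoq (0.16), Lpl (0.10) and Fabp4 (0.081) were called higher, so that 4 of the 5 rose and 1 fell. Over all genes, 35.2% were then called higher and 25.4% lower. After quantile normalization 1 rose and 1 fell, beside 30.5% and 29.2% of all genes. All 5 markers of heat-producing fat rose; of all genes tested 23.6% were called higher and 35.8% lower. Markers of other cells moved in the same arrays. Of 10 macrophage markers 9 were tested and all 9 fell, their summed intensity going from 11115 to 12129 on control arrays to 3665 to 3973 on treated arrays. All 7 tested stromal and preadipocyte markers of 8 and all 5 smooth muscle markers fell too, from summed intensities of 21096 to 21583 and of 8639 to 9115 down to 11095 to 11532 and 4777 to 4904. Of 9 skeletal muscle markers 3 were tested. Ckm (log2 change 0.37, limma adjusted p = 0.0427) and Des (0.21, limma adjusted p = 0.0405) rose and Acta1 did not pass, and the summed intensity of these 3 was 360 to 401 on control arrays and 391 to 451 on treated arrays. The defining genes Myh1, Myh2, Myh4, Mylpf, Tnnt3 and Myog were too dim to test in either group. Of 6 endothelial markers Tek and Flt1 were tested and fell, and Pecam1, Cdh5, Kdr and Emcn were too dim. Of 5 epithelial markers 2 were tested and did not pass. In such bulk samples fewer cells of a type and less RNA per cell cannot be told apart, and the part of these shifts in the results on oxidation genes was not tested.

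Most of the pathway was higher with rosiglitazone. Of the 30 tested genes 26 rose, 1 fell and 3 did not pass the test (limma, adjusted p under 0.05 over all genes tested). Of all 12952 genes tested, 23.6% were called higher and 35.8% lower, 59.4% in either direction. The 26 rises covered every step, from carnitine uptake by Slc22a5 to thiolysis by Acaa2, and the fall was in Echdc2. The median log2 change of the 30 genes was 0.38, against −0.05 over all genes tested. In 26 genes all 3 treated arrays lay above all 3 control arrays, and in 2 they lay below; over the whole table these shares were 25.7% and 38.3%. Against a minimum change of 1.2-fold (limma's treat), 17 genes were higher and 1 lower, where 8.59% and 16.5% of all genes were; over the alternatives run the number higher went from 14 without a filter on low values to 22 after median centring. By step, the median log2 change was 0.43 for carnitine supply, 0.36 for the shuttle, 0.26 for acyl-CoA dehydrogenation and 0.38 for electron transfer. It was 0.39 for hydration to thiolysis, 0.75 for the enzymes of unsaturated chains and 0.25 for the side enzymes. Most rises were moderate: 11 of the 30 changes stood at or above the 90th percentile of all changes in the table, and 3 exceeded a doubling of intensity on the log2 scale, in Mlycd, Hadha and Acaa2. Over the alternatives run, the lowest log2 changes of these genes were 1.21, 0.99 and 0.90, so that only Mlycd stayed above a doubling throughout. Median centring set each array on the median of its probe sets that passed the filter on low values. It moved the median change of all genes by 0.12 and left the numbers at 26 and 1, when 35.2% and 25.4% of all genes were called higher and lower. Quantile normalization gave 25 and 1, with 30.5% and 29.2% over the table.

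**Figure D1:**
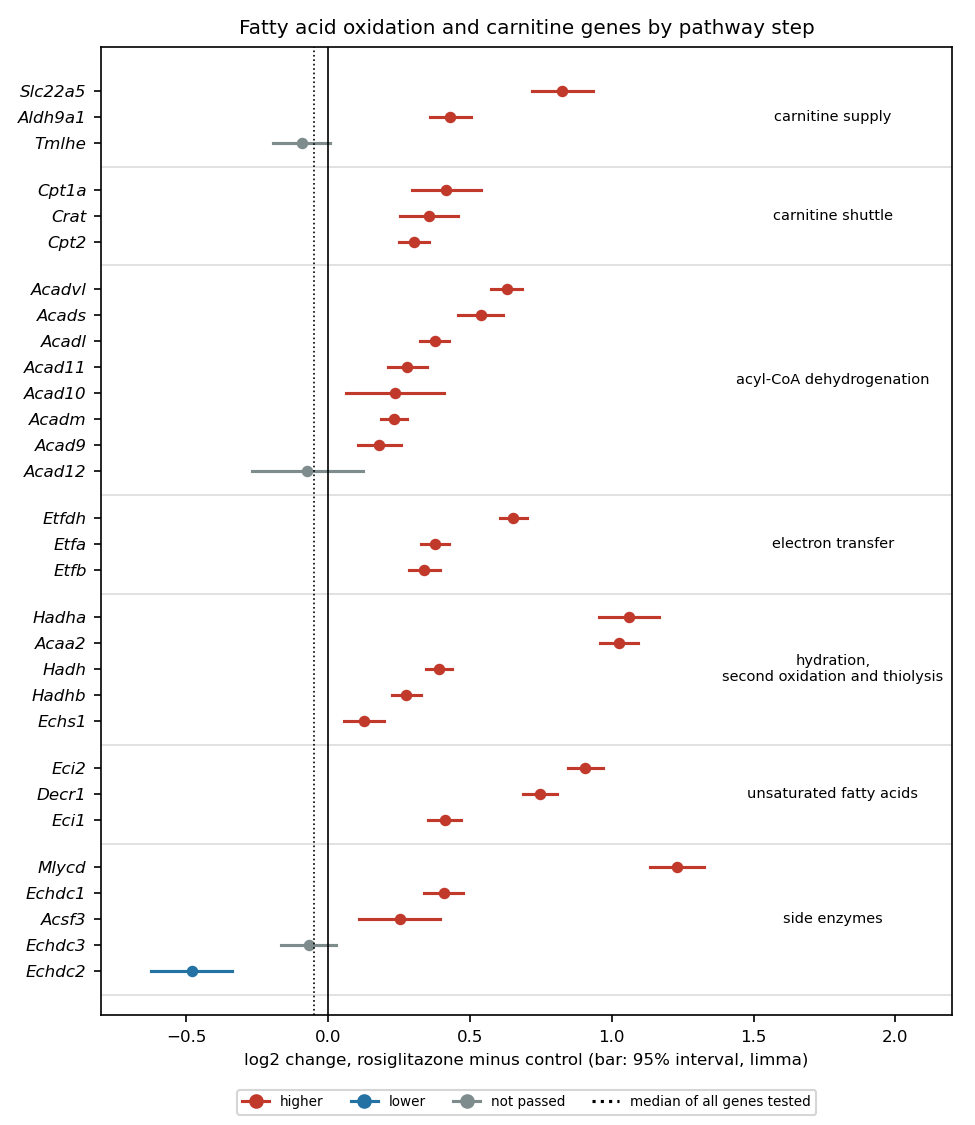
Log2 change (rosiglitazone minus control) of the 30 tested genes on the horizontal axis, grouped by pathway step, with 95% intervals from limma; colour marks the call and the dotted line the median of all genes tested, −0.05. The highest points are Mlycd at 1.23, Hadha at 1.06 and Acaa2 at 1.03, and Echdc2 at −0.48 is the one gene called lower.

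Carnitine supply was split. Slc22a5 encodes OCTN2, the sodium-coupled carnitine importer of the cell surface. Its intensity was 799, 778 and 687 on the control arrays and 1344.5, 1327 and 1334 on the treated arrays. The groups stood well apart, a 1.77-fold rise (log2 change 0.83, SE 0.05, limma adjusted p = 5.23e-10), and a dimmer probe set gave 0.79. The enzymes of carnitine synthesis did not move together. Aldh9a1, whose product oxidises the trimethylaminobutyraldehyde intermediate, rose from 2397 ± 104 to 3231 ± 21.8, a log2 change of 0.43. Tmlhe, whose product hydroxylates trimethyllysine at the start of the pathway, lay at 851, 853 and 952 in control cells and 830.1, 832 and 826 with rosiglitazone. All treated arrays of Tmlhe were slightly below all control arrays, but the log2 change of −0.093 did not pass the test (95% CI −0.19 to 0.0081, limma adjusted p = 0.106) and was 0.030 after median centring and 0.0099 after quantile normalization. None of its 4 probe sets passed. Bbox1, the gene of the last step of carnitine synthesis, was too dim to test.

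All 3 tested genes of the carnitine shuttle rose, by 0.30 to 0.42 on their probe sets with the highest mean intensity. Over all genes tested, 23.6% were called higher. With the mean of each gene's sets the changes were 0.41 for Cpt1a, 0.30 for Cpt2 and 0.61 for Crat. Cpt1a encodes the liver-type carnitine palmitoyltransferase, the step that malonyl-CoA inhibits. Its arrays read 427, 474 and 465 in control cells and 571, 609 and 643 in treated cells. The lowest treated array lay above the highest control array, and the 1.33-fold rise (log2 change 0.42, SE 0.06, limma adjusted p = 8.84e-06) was matched by its other probe sets at 0.45 and 0.38. Cpt1b, the muscle-type isoform, has no value here, because the one probe set that lists it also lists Chkb and Gm44502. Cpt2, the inner membrane partner, read 4794, 4810.3 and 4814 in control cells and 5842, 5883 and 6063 in treated cells. These groups were tight and apart, with a rise of 1.23-fold (log2 change 0.30, SE 0.03, limma adjusted p = 2.89e-08). Crat, which forms acetylcarnitine and other short-chain esters, rose by 0.36 on its brightest probe set and by 0.50 and 0.97 on dimmer ones. Slc25a20, the carrier that exchanges acylcarnitine for carnitine across the inner membrane and not part of the 32-gene list, went from 3772 ± 92.8 to 7051 ± 219, a log2 change of 0.90.

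**Figure D2:**
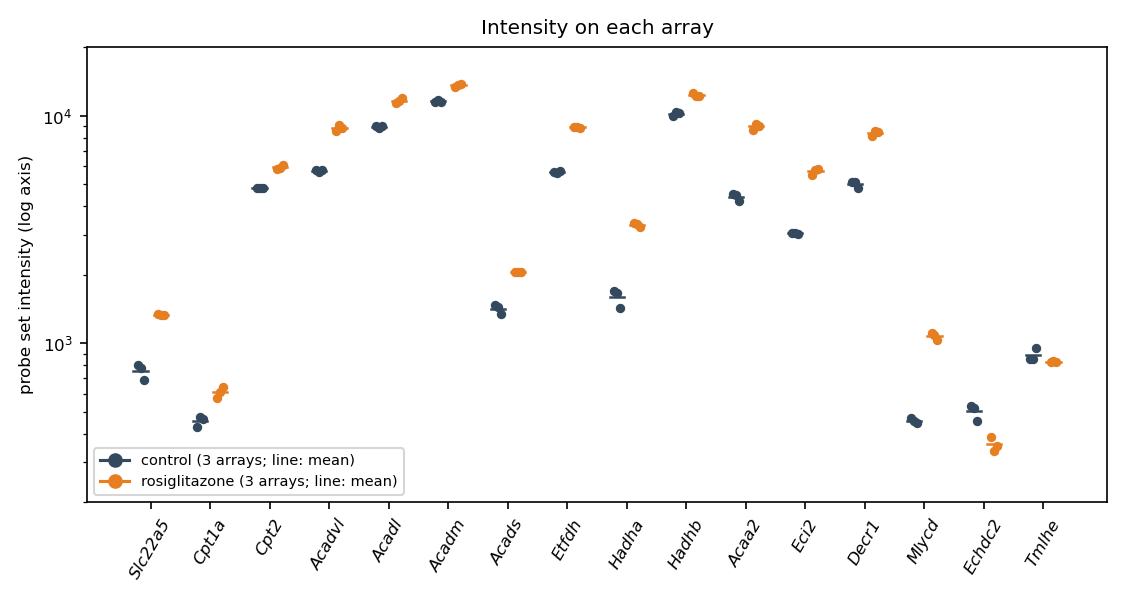
Probe set intensity (log axis) on each of the 6 arrays for 16 of the genes, control arrays in dark blue and rosiglitazone arrays in orange, with a line at each group's mean. Treated arrays lie above control arrays for the first 14 genes and below them for Echdc2 and Tmlhe.

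The acyl-CoA dehydrogenases for all chain lengths rose, and the size of the rise did not follow chain length in order. Acadvl, the very-long-chain enzyme bound to the inner membrane, read 5741, 5676 and 5739 in control cells and 8593, 9109.9 and 8845 in treated cells. This was the largest rise of the family, 1.55-fold (log2 change 0.63, SE 0.03, limma adjusted p = 4.04e-12). Under quantile normalization Acadvl stood at 0.558, below Acads at 0.605. Acadl, the long-chain enzyme, read 8986, 8824 and 8964 in control cells and 11304, 11559 and 11887 in treated cells, a log2 change of 0.38 (SE 0.02). Acadm, the medium-chain enzyme, read 11462, 11707 and 11469.9 in control cells and 13358, 13658 and 13698 in treated cells. Its arrays were separate in the same direction at a log2 change of 0.23 (SE 0.02, limma adjusted p = 8.02e-08), the smallest change of the 4 enzymes named for a chain length. Acads, the short-chain enzyme, read 1469.6, 1445 and 1344 in control cells and 2062, 2056 and 2058 in treated cells, a log2 change of 0.54 (SE 0.04). The short-chain enzyme thus stood next to the very-long-chain one and above the long-chain and medium-chain ones. The 4 probe sets differed in intensity, with Acadm the brightest and Acads the dimmest. The part of probe set intensity in this order was not tested.

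The other members of the dehydrogenase family had changes of 0.28 or less. Acad9, known as an assembly factor of respiratory complex I that also has dehydrogenase activity, rose by 0.18, and Acad11 by 0.28. Acad10 rose by 0.23 from 135 ± 3.37 to 159 ± 9.83. That call was weak (limma adjusted p = 0.0206): it was lost without control replicate 2 (log2 change 0.22) or rosiglitazone replicate 2 (0.19) and with the mean of its 2 probe sets (0.15). Acad12, which lies next to Acad10 on the chromosome, read 133, 137 and 128 in control cells and 140.5, 117 and 122 in treated cells. Its groups overlapped, with a log2 change of −0.073 (95% CI −0.27 to 0.12, limma adjusted p = 0.525) that was 0.050 after median centring and 0.024 after quantile normalization.

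Electron transfer genes rose together, where 23.6% of all genes tested were called higher. Etfdh, whose product hands the electrons to ubiquinone, read 5648, 5586 and 5692 in control cells and 8859.6, 8923 and 8835 in treated cells. The rise of 1.57-fold (log2 change 0.65, SE 0.02, limma adjusted p = 6.8e-13) was far wider than the spread of either group. The flavoprotein subunit genes rose less and about equally, Etfa by 0.38 and Etfb by 0.34 (SE 0.02 and 0.03).

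The trifunctional protein, which carries out the last 3 reactions on long chains, is built from the products of Hadha and Hadhb. Hadha encodes its hydratase and hydroxyacyl-CoA dehydrogenase subunit and Hadhb its thiolase subunit. They lie head to head on chromosome 5, with 272 bases between their RefSeq starts at 30154980 and 30155253 in GRCm38.p6, and so share most of their upstream sequence. The interval is shown because both genes are read away from it and gave different changes. The stretch is chr5:30155003-30155252 on the + strand, the 250 bases before the Hadhb start, and capitals mark the 228 bases that also lie within 250 bases before the Hadha start.

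Hadha and Hadhb: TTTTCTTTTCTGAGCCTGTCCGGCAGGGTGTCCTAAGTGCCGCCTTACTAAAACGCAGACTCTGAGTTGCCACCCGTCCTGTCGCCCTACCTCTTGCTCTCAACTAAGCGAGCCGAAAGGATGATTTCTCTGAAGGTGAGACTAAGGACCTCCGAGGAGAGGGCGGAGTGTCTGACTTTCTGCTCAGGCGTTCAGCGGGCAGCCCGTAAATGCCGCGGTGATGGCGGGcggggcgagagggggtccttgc

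Hadha read 1691, 1653 and 1429 in control cells and 3367, 3352 and 3226 in treated cells. It rose 2.09-fold (log2 change 1.06, SE 0.05, limma adjusted p = 1.93e-11). Hadhb read 9946, 10323 and 10303 in control cells and 12596, 12184 and 12241 in treated cells, a 1.21-fold rise (log2 change 0.28, SE 0.02, limma adjusted p = 3.24e-08). That probe set carries the _x_at suffix, which Affymetrix gives to sets with probes that can match other transcripts. The next brightest Hadhb set, without the suffix, read 6856, 6958 and 6786 in control cells and 10944, 11172 and 11346 in treated cells, a log2 change of 0.70. The dimmest set gave 0.78 (SE 0.18) at low intensity, with 35.2, 62.5 and 43.8 in control cells. With the brightest sets Hadha exceeded Hadhb in change by 0.79, and with _x_at and _s_at sets left out by 0.36. In both cases treated and control arrays did not overlap.

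Among the enzymes for shorter chains the changes spanned nearly the same range. Acaa2, the mitochondrial thiolase, read 4529.9, 4477 and 4214 in control cells and 8666, 9199.6 and 9033 in treated cells. It rose 2.04-fold (log2 change 1.03, SE 0.03, limma adjusted p = 1.23e-13), and its 2 dimmer sets gave 0.90 and 1.18. With _x_at and _s_at sets left out the change of Acaa2 was 0.90. Hadh, the hydroxyacyl-CoA dehydrogenase of medium and short chains, rose by 0.39 on its brightest set, which also has the _x_at suffix. Its other sets gave 0.39 with the suffix and 0.58 without it. Echs1, the short-chain hydratase, had the smallest called rise of the list, from 5316 ± 227 to 5806 ± 186. Its log2 change of 0.13 (limma adjusted p = 0.00322) was not called after quantile normalization (0.07), without a filter on low values, with a floor of 64 or without a variance trend.

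Over 7 tested genes for long chains (Cpt1a, Cpt2, Acadvl, Acadl, Acad9, Hadha and Hadhb) all rose, with a median log2 change of 0.38. The 6 for medium or short chains (Crat, Acadm, Acads, Hadh, Echs1 and Acaa2) all rose as well, with a median of 0.37; 5 were called after quantile normalization. Of all genes tested 23.6% were called higher, and 30.5% after quantile normalization. The spread within each class, 0.18 to 1.06 and 0.13 to 1.03, was much wider than the gap between the medians. Genes were then compared in pairs on the same array, as the per-array log2 difference, with an exact two-sided permutation test over the 6 arrays. The smallest p that 3 against 3 arrays can give is 0.1, so no pair could pass. Of 8 pairs measured, 6 had control and treated arrays that did not overlap (exact permutation p = 0.1, adjusted 0.133). Hadha rose more than Echs1 by 0.94, more than Hadh by 0.67 and more than Hadhb by 0.79. With _x_at and _s_at sets left out, Hadha exceeded Hadh by 0.49 and Hadhb by 0.36. Hadhb rose less than Acaa2 by 0.75 (a difference of −0.75, or −0.20 with _x_at and _s_at sets left out). Acadl exceeded Acadm by 0.14, with per-array SDs of 0.03 and 0.02. The pair of Acadvl and Acads overlapped, at a difference of 0.092 (exact permutation p = 0.2) that turned to −0.047 after quantile normalization. The pair of Cpt2 and Crat overlapped as well, at −0.053 (exact permutation p = 0.7), but gave −0.31 with the mean of probe sets and −0.16 after quantile normalization, both without overlap (exact permutation, adjusted p = 0.114).

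**Figure D3:**
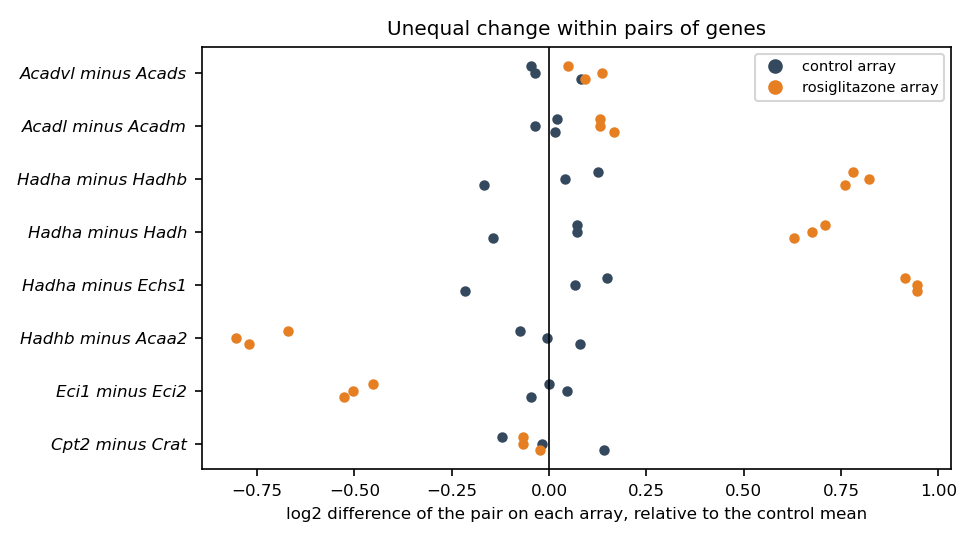
Log2 difference between the genes of a pair on each array, relative to the mean of the control arrays; dark blue points are control arrays and orange points rosiglitazone arrays. Hadha minus Echs1 shows the widest gap at 0.94, while the groups overlap for Acadvl minus Acads and for Cpt2 minus Crat.

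All 3 genes for enzymes that prepare unsaturated chains rose, with a median log2 change of 0.75, where 23.6% of all genes tested were called higher. Eci2, an enoyl-CoA isomerase found in mitochondria and peroxisomes, read 3054, 3048 and 3027 in control cells and 5500.3, 5782 and 5834 in treated cells. The rise was 1.87-fold (log2 change 0.91, SE 0.03, limma adjusted p = 2.21e-13). Its mitochondrial relative Eci1 rose by 0.41, and on the same arrays the difference between them was −0.50 with no overlap. Decr1, the dienoyl-CoA reductase, rose from 5003 ± 151 to 8386 ± 194, a log2 change of 0.75 on its brightest set and 1.05 on a dimmer one.

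The remaining genes act beside the main spiral and went in different directions. Mlycd encodes malonyl-CoA decarboxylase, which removes the inhibitor of CPT1. It read 469, 455 and 447 in control cells and 1104, 1085 and 1027 in treated cells. At 2.35-fold (log2 change 1.23, SE 0.05, limma adjusted p = 1.16e-12) it was the largest rise among the 30 genes. Echdc1, whose product destroys ethylmalonyl-CoA, a by-product of fatty acid synthesis, read 4900.3, 5066 and 5420.2 in control cells and 6762, 6775 and 6853 in treated cells, a log2 change of 0.41. Acsf3, the mitochondrial malonyl-CoA synthetase gene, rose by 0.25 (SE 0.07, limma adjusted p = 0.00398) from 215 ± 2.6 to 256 ± 16.4.

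Echdc2, a hydratase-like gene of the same family as Echdc1, read 531, 520.1 and 454 in control cells and 387, 337 and 354 in treated cells. It was the only tested gene of the list called lower, to 0.716 of the control level (log2 change −0.48, SE 0.07, limma adjusted p = 1.18e-05). Its direction and call held under all alternatives run, at −0.36 to −0.55. Echdc3 read 1017, 987 and 933 in control cells and 889, 946 and 966 in treated cells. These values overlapped, at a log2 change of −0.0685 (95% CI −0.17 to 0.029, limma adjusted p = 0.215) that was 0.054 after median centring and 0.028 after quantile normalization. Acsf2, a medium-chain acyl-CoA synthetase gene, lay between 6.96 and 24.9 on all 6 arrays and was too dim to test.

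Where a gene had several probe sets, the sets mostly gave the same call. Of 15 genes with more than 1 tested set, 13 had all sets higher, Tmlhe had no set that passed, and Acad10 had 1 of 2 higher. In all, 45 of 53 tested probe sets of the list were higher and 1 lower, where 22.1% and 32.7% of all tested probe sets were. In 9 of the 13 genes the largest change was seen in a set dimmer than the brightest one. For Crat, Decr1, Hadh, Hadhb and Etfdh a dimmer set gave 0.97, 1.05, 0.58, 0.78 and 1.02, against 0.36, 0.75, 0.39, 0.28 and 0.65 on the brightest. The dimmer Etfdh set was near the filter on low values, and that Hadhb set had a mean intensity of only 63.0. No test was made of which transcripts each set detects. The brightest set thus gave the smallest reading for Crat, Decr1, Hadhb and Etfdh, and for Hadh another set also gave 0.39.

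**Figure D4:**
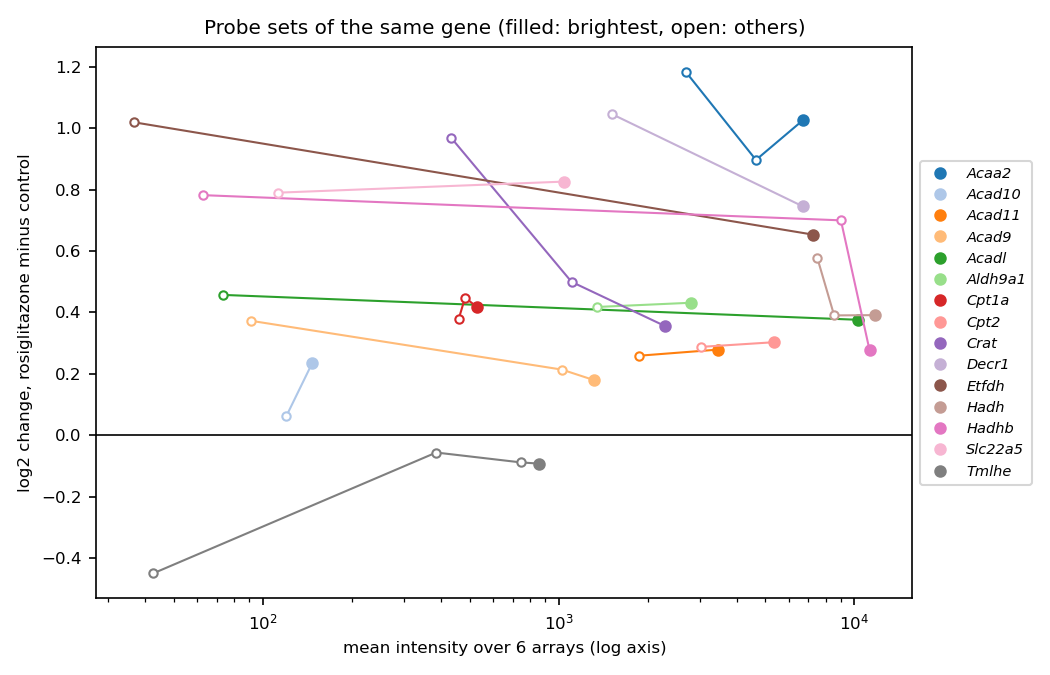
Log2 change of every tested probe set against its mean intensity (log axis) for the 15 genes with more than 1 tested set; lines join sets of the same gene, and filled points mark the brightest. Crat falls from 0.97 on its dimmest set to 0.36 on its brightest, while Cpt2, Slc22a5 and Aldh9a1 stay nearly level.

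Promoters were searched because PPAR and ERR nuclear receptors are known regulators of this pathway. Of the list, 26 genes had an entry among RefSeq promoters (GRCm38.p6). Tmlhe, Cpt1b, Crat, Acad9, Acaa2 and Decr1 had none and were not searched. In the 250 bases before the start, 3 of 26 genes (11.5%) held a match, on either strand, to the direct repeat read by PPAR with RXR, which is AGGTCA, any 1 base and AGGTCA again, with at most 2 mismatches in its 12 fixed letters; of all 32851 promoters 3.24% did. With at most 1 mismatch 0 of 26 genes and 0.484% of promoters matched. TCAAGGTCA, the element read by ERR, with at most 1 mismatch, was found in 0 of 26 and in 6.35% of promoters. The matches are shown in capitals with 20 bases on each side, each read along its gene, and lie upstream of Aldh9a1 (chr1:167349827-167349879, + strand), Echs1 (chr7:140116472-140116524, − strand) and Etfa (chr9:55512288-55512340, − strand, the match on the opposite strand to the gene).

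Aldh9a1: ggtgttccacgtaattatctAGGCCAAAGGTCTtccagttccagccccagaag
Echs1: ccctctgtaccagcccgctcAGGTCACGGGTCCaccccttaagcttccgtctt
Etfa: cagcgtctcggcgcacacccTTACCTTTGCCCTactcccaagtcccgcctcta

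The log2 changes of these genes were 0.43, 0.13 and 0.38, among them the smallest called rise of the list. In this window Mlycd and Hadha, with the largest rises, did not hold these letters. Acaa2, next in size of rise, had no promoter entry. Bases outside the window were not searched.

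Genes that surround the pathway were read from a separate list of 23. Of 20 tested, 10 rose, 7 fell and 3 did not pass, with a median log2 change of 0.13; of all genes tested 23.6% were called higher and 35.8% lower. After median centring, 13 rose and 7 fell, beside 35.2% and 25.4% of all genes. Regulators went both ways. Ppara, the nuclear receptor of fatty acid catabolism, went from 681 ± 30.7 to 2419 ± 54.8 (log2 change 1.83, SE 0.04, limma adjusted p = 4e-15), and the coactivator gene Ppargc1a rose by 1.18. The nuclear receptor gene Esrra rose by 0.69, while Pparg, which encodes the receptor of the drug, fell from 4463 ± 41.7 to 3484 ± 54.2 (log2 change −0.36, SE 0.03, limma adjusted p = 7.45e-09). Esrra and Pparg are named here after their values were seen. Pdk4, whose kinase shuts off pyruvate oxidation, rose by 1.17 and Acot2, a mitochondrial acyl-CoA thioesterase gene, by 1.14. Acacb, whose product makes malonyl-CoA at the mitochondrial surface, rose by 0.86 from 748 ± 37.4 to 1358 ± 46.5. Mlycd, whose enzyme removes malonyl-CoA, rose by 1.23 in the same bulk samples. By contrast Ivd and Acadsb, acyl-CoA dehydrogenase genes of branched-chain amino acid breakdown named here after their values were seen, had log2 changes of −1.04 and −0.99. Acad8, the other branched-chain dehydrogenase gene of that list, also chosen after its values were seen, did not pass at 0.064 (limma adjusted p = 0.211) and was called higher at 0.19 after median centring and 0.16 after quantile normalization.

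Of 16 peroxisomal oxidation genes 14 were tested, and 10 rose and 2 fell, with a median of 0.39; of all genes tested 23.6% were called higher and 35.8% lower. After quantile normalization 9 rose and 2 fell, beside 30.5% and 29.2% of all genes. Acaa1b, a peroxisomal thiolase gene, rose by 3.93, Ehhadh, the peroxisomal bifunctional enzyme gene, by 0.97 and Eci3, a peroxisomal isomerase gene, by 0.89, while Pecr fell by 0.97 on the log2 scale. The mitochondrial list showed no change as large as that of Acaa1b, its range being −0.48 to 1.23.

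**Figure D5:**
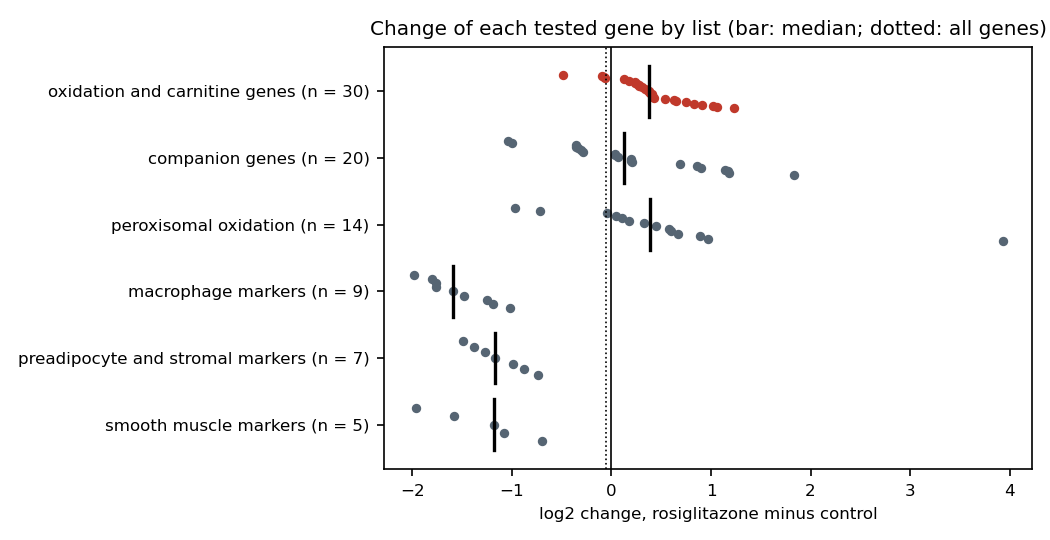
Log2 change (horizontal axis) of each tested gene in 6 lists, with a bar at each list's median and a dotted line at the median of all genes tested. The oxidation and carnitine genes centre on 0.38 between −0.48 and 1.23, the companion genes spread to both sides of 0, and macrophage, stromal and smooth muscle markers all lie below 0.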

How the data were processed

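Total RNA was measured on Affymetrix mouse 430 2.0 arrays. The authors' deposited values are probe set intensity on a linear scale for 45101 probe sets; no source used here names the software behind them, and arrays were alike in median. Probe sets were named through the platform annotation (34945 with 1 symbol, 932 with several, 9160 not listed). Intensities under 16 were set to 16 and log2 taken. Control sets (64) and the 40% with the lowest mean (under 27.3) were left out. The comparison used limma 3.58.1 (R 4.3.3; variance trend, no covariate), with Benjamini-Hochberg adjustment over all 12952 genes. The code was tested on simulated data. The genes, lists, pairs and alternatives were chosen with earlier results of these data known. All 32 genes are named; values per array go to the largest changes of each step, to 10 core genes, and to genes that fell or did not pass; other lists name 6 preset genes and up to 4 called genes each. Alternatives were other filters, scalings, floors, probe set rules, thresholds and a variance model, a replicate block, and each array left out. The number of arrays limits precision.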

Additional observations from a re-analysis of the deposited data

Results flagged for a closer look

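A probe set that the annotation assigns to Gm44502, Cpt1b and Chkb at once gave a signal outside the comparisons of single genes. It read 409, 384 and 291 on the control arrays and 2769, 2869 and 2939 on the treated arrays, means of 362 ± 62.1 and 2859 ± 85.7 (SD, n = 3 each). It was noted because the treated level lies above every control array in a probe set that no gene of the list uses. Treated arrays lay above all control arrays in 25.7% of all genes tested. The set cannot be assigned to Cpt1b, and which of the named transcripts it reads was not tested.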

How the results depend on the processing

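The list kept 25 to 26 genes called higher and 1 called lower under all 17 alternatives, among them the replicate block (26 and 1, with 7693 genes changed over the table against 7692), which changed no call of the list. Replicate numbers gave no sign of pairing: deviations of same-numbered arrays correlated at −0.02, −0.02 and 0.06, and 2 of 6 arrays correlated best with their own number. With so few arrays this cannot show that the samples were unpaired. Of the 30 genes 25 kept direction and call throughout; the exceptions were Acad10, Echs1, Tmlhe, Acad12 and Echdc3, the last 3 were not called and turned to 0.0099, 0.024 and 0.028 under quantile normalization and 0.030, 0.050 and 0.054 under median centring. Leaving out _x_at and _s_at probe sets was chosen after seeing the data. Step medians moved with the scaling. For all genes, the shuttle, dehydrogenation, electron transfer, hydration to thiolysis, unsaturated chains, side enzymes and long chains they were 0.34, 0.41, 0.30, 0.29, 0.35, 0.69, 0.34 and 0.32 under quantile normalization. Under median centring they were 0.50, 0.48, 0.38, 0.50, 0.51, 0.87, 0.38 and 0.50, with 0.55 for carnitine supply and 0.50 for medium or short chains. With the mean of probe sets the medians were 0.41 (all), 0.41 (shuttle), 0.59 (hydration to thiolysis), 0.90 (unsaturated chains), 0.42 (long) and 0.50 (medium or short), and without _x_at and _s_at sets 0.70 (hydration to thiolysis), 0.45 (long) and 0.45 (medium or short). With weaker filters, which admit Acsf2, the side enzymes stood at 0.13. Leaving out 1 array gave shuttle medians of 0.30 to 0.37 and medium or short chain medians of 0.34 to 0.41. The difference of Acadvl and Acads was −0.047 under quantile normalization, and that of Cpt2 and Crat ranged from −0.11 to 0.017 with 1 array left out, turning without control replicate 3. With fewer mismatches 0 promoters of the list matched the PPAR element. Pairs with Cpt1b or Acsf2 had no main value and were not run. The cause of these shifts was not tested. Signal near the floor limits Acsf2.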
